A study of Mus musculus with 6 samples.

Results

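The 8 genes described here, called members below, are plasminogen activators and their receptor, serpins, and receptors that proteases switch on. These are the activators Plau and Plat, the activator receptor Plaur, the serpins Serpine2, Serpinb2 and Serpinb9b, and the protease-activated receptors F2r and F2rl1. They were taken by symbol from a count table of 57010 Ensembl identifiers, and all 8 were found and passed the filter on low counts that left 16093 genes for testing. RNA was sequenced from mouse ear fibroblasts that had spent 3 days on glass, on a polyacrylamide gel of 1 kPa or on a gel of 20 kPa, with 2 libraries per substrate. Each sample was labelled as 500000 cells, and all groups share the tissue, cell type and time. No genotype, strain, age, passage or reprogramming factor was stated for any group. The series concerned how substrate stiffness bears on cell reprogramming. Whether the replicates were separate animals or cultures is not stated, so the p-values reflect the spread of these libraries, which could be purely technical. Library totals ran from 17669006 to 21350111 counts.

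Plasminogen activators are serine proteases that cut plasminogen into plasmin, which in turn degrades fibrin and other matrix proteins and activates further proteases. Urokinase, the product of Plau, works mainly at the cell surface on its receptor, the product of Plaur, whereas tissue plasminogen activator, the product of Plat, is best known for acting on fibrin clots. Serpins trap their target protease in an irreversible complex, and fibroblasts use them to limit proteolysis around the cell. Protease-activated receptors are coupled to G proteins and are switched on when a protease cuts off the end of their extracellular part. F2r encodes the main thrombin receptor, and F2rl1 encodes a relative that is cut by trypsin-like proteases rather than thrombin.

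The fibroblast label was checked against 10 markers, including Col1a1, Pdgfra and Thy1. Their summed level was 19700 to 21100 CPM on glass, 28600 to 29700 CPM on 1 kPa and 31100 to 32300 CPM on 20 kPa, where CPM is the usual library-scaled count, here after TMM scaling. Of these markers 9 rose and 1 fell on 1 kPa, and 8 rose and 1 fell on 20 kPa, and their part in the results below was not tested. Over all tested genes 23.0% rose and 22.0% fell on 1 kPa, and 22.3% rose and 19.6% fell on 20 kPa. The same shares belong beside the marker counts given further below. Markers of other cells were far lower. Summed over 8 genes, keratinocyte markers lay between 19.1 and 28.5 CPM and macrophage and leukocyte markers between 16.1 and 56.2 CPM. The 7 endothelial markers summed to 57.2 to 60.7 CPM on glass, 55.9 to 59.3 on 1 kPa and 81.5 to 87.0 on 20 kPa, with Erg the largest part. The 8 Schwann cell and melanocyte markers summed to 18.3 to 18.5, 37.4 to 37.9 and 41.5 to 41.9 CPM, so they were higher on both gels. The part of these cells in the results below was not tested. The 5 mast cell markers reached at most 0.536 CPM, with Cpa3, Mcpt4 and Tpsb2 at 0 counts in every library.

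All 8 genes are protein-coding in GENCODE M21, the GRCm38 annotation that gave the positions below. The identifiers are those of the count table, and for all 8 the version number differs from that in GENCODE M21. The annotation behind the counts may therefore differ from the one behind these positions. Levels per kilobase use GENCODE M21 exon lengths and assume that reads were counted over those exons. Plau (ENSMUSG00000021822.4) spans chromosome 14 from 20836660 to 20843385, Plaur (ENSMUSG00000046223.11) chromosome 7 from 24462484 to 24475968, and Plat (ENSMUSG00000031538.7) chromosome 8 from 22757727 to 22782844, all on the plus strand. Serpine2 (ENSMUSG00000026249.11) runs on the minus strand of chromosome 1 between 79794197 and 79861180. Serpinb2 (ENSMUSG00000062345.11) lies on the same chromosome from 107511423 to 107535478 on the plus strand, and Serpinb9b (ENSMUSG00000021403.4) on chromosome 13 from 33027416 to 33041884 on the plus strand. F2rl1 (ENSMUSG00000021678.10, 95511732 to 95525227) and F2r (ENSMUSG00000048376.7, 95601803 to 95618487) are neighbours on the minus strand of chromosome 13, 76.6 kb apart.

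Sequencing reads that fit a second gene could blur a member's count, so shared stretches were looked for in the annotated transcripts. Stretches of 50 bases from Plau, Plaur, Plat, F2r and F2rl1 occurred in no other gene. Serpinb2 shared 10.4% of its stretches, all with Serpinb10, which had 0 to 7 counts in a library. Serpinb9b shared 5.38%, most of them with Gm36099, which had 0 to 6 counts, and a few with Serpinb9. Serpine2 shared 0.3%. The strand setting of the counting is not given in the sources used here.

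RefSeq promoter windows (GRCm38.p6) were matched for 5 members. The 4 printed here are those of the 2 members that rose most on the gels, Serpinb2 and Serpine2, and of Plaur and F2r, the pair of members whose profiles were most alike. Each is the 250 bases before a RefSeq start, 5′ to 3′ on the gene's strand, and capitals mark matches to the motifs searched. For Serpine2 the window lies inside the gene span given above, and for F2r it overlaps that span.
Serpinb2, chr1:107511173-107511422, plus strand: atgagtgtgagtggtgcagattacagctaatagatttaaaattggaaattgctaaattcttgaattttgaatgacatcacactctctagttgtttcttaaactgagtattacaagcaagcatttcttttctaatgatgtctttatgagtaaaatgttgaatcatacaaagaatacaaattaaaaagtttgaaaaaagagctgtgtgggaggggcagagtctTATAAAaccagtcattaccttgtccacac
Serpine2, chr1:79858666-79858915, minus strand: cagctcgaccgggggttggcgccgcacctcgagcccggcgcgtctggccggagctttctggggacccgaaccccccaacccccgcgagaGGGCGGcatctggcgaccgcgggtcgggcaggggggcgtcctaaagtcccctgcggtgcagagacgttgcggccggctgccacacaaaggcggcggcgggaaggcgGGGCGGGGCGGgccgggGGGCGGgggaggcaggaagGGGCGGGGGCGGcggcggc
Plaur, chr7:24462233-24462482, plus strand: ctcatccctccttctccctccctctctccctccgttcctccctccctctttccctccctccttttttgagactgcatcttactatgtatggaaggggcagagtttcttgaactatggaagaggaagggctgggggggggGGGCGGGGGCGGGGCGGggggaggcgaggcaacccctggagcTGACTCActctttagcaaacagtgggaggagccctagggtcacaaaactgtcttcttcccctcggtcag
F2r, chr13:95618467-95618716, minus strand: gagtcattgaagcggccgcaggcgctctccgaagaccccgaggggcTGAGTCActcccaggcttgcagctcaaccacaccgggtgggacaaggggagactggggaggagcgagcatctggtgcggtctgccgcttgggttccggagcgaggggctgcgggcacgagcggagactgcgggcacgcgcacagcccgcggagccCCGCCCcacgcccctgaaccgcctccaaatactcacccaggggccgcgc
Both strands were searched for the AP-1 motif TGAGTCA, the cAMP response element TGACGTC and the GC box GGGCGG. The TATA motif was searched as TATAAA, the E-box as CACGTG and the TEAD motif as CATTCC. The Serpinb2 window is poor in G and C, with 32.4% against a median of 52.4% over 32851 windows. It holds a TATA match from -29 to -24, as 12.4% of all windows hold one. Before a second RefSeq start of Serpinb2, in a window not printed, the same match lies from -116 to -111. The Serpine2 window, with 78.8% G and C, holds 6 matches to the GC box, some of them overlapping, and 32.7% of all windows hold at least 1. Plaur has an AP-1 match from -69 to -63 on the opposite strand and F2r has an AP-1 match from -204 to -198, a motif found in 4.46% of all windows. The remaining capitals in these windows, 3 in Plaur and 1 in F2r, are GC boxes. The other matched member, Serpinb9b, has a window with 46.0% G and C and 0 matches, which is not printed. Because the printed windows were picked by the members' levels in these data, their motifs cannot be linked to those levels. Whether any motif goes with a member's change was not tested. All are letter matches only, and they do not show that a factor binds.

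The members differed widely in level, and the substrate changed their order. Compared per kilobase of annotated exon, the highest on glass was F2r at 38.5 ± 1.05 CPM per kb (mean ± SD, n = 2), followed by Plaur at 31.0 ± 0.0929, Plau at 25.5 ± 0.121 and Serpine2 at 13.7 ± 0.683 CPM per kb. F2rl1 came next at 8.95 ± 0.235, then Plat at 6.74 ± 0.2, Serpinb9b at 3.84 ± 0.45 and Serpinb2 at 0.197 ± 0.000512 CPM per kb. On both gels Serpine2 stood first, at 50.4 ± 2.48 CPM per kb on 1 kPa and 43.0 ± 0.335 CPM per kb on 20 kPa, and Serpinb9b stood last, at 0.609 ± 0.203 and 0.587 ± 0.192 CPM per kb. In each group, no neighbours in this order overlapped between their libraries. The order depends on the length used: with the longest transcript in place of all exons, Serpine2 was at 33.3 CPM per kb on glass and Plaur, at 40.3, stood above F2r.

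All 8 members differed among the 3 substrates in the edgeR test over the groups (adjusted p under 0.05), as did 51.2% of all tested genes. Because so many genes differed, a call on its own says little about these members, and their sizes and directions carry the description below. In bulk RNA, fewer cells of a type and less RNA per cell cannot be told apart.

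**Figure D1:**
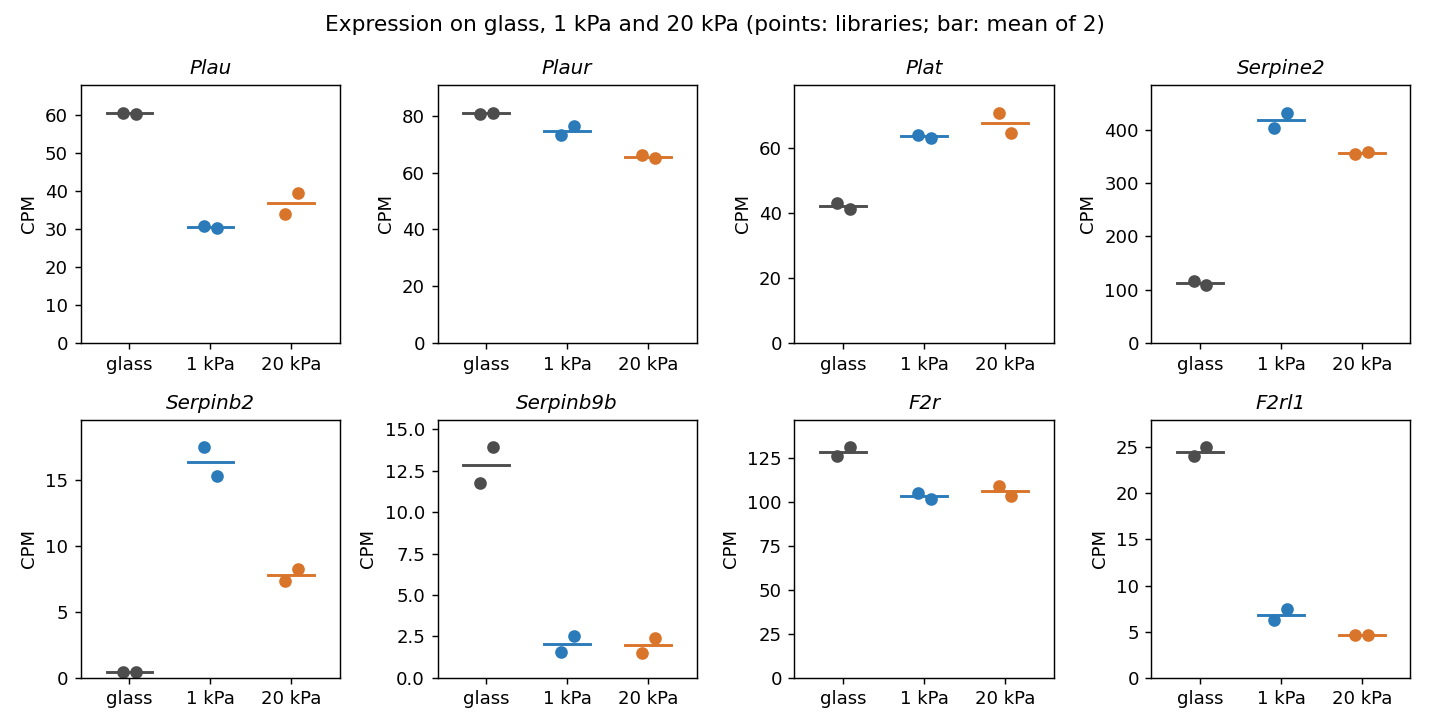
Level of each member in CPM (vertical axis, from 0, scaled per panel) in every library on glass, 1 kPa and 20 kPa; points are libraries and bars are means of 2. Plau, Serpinb9b, F2r and F2rl1 are highest on glass and Plat, Serpine2 and Serpinb2 lowest there, with no overlap between glass and either gel.

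The 2 plasminogen activators went in opposite directions. Plau, the urokinase gene, was at 60.6 and 60.2 CPM in the glass libraries, at 30.7 and 30.2 CPM on 1 kPa, and at 34.0 and 39.4 CPM on 20 kPa. The glass libraries lay above all gel libraries, and the 20 kPa libraries stood apart from each other more than those of the other groups. Plau fell by 0.99 on the log2 scale on 1 kPa (SE 0.08, edgeR adjusted p = 1.68e-11) and by 0.72 on 20 kPa (SE 0.08, edgeR adjusted p = 8.75e-09).

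Plat, the gene of tissue plasminogen activator, was at 43.0 and 41.2 CPM on glass, at 64.2 and 63.1 CPM on 1 kPa, and at 71.0 and 64.8 CPM on 20 kPa. Both gel groups lay above glass without overlap. Plat rose by 0.60 (SE 0.07, edgeR adjusted p = 6.03e-08) on 1 kPa and by 0.69 (SE 0.07, edgeR adjusted p = 3.56e-09) on 20 kPa, both log2 fold changes against glass.

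Within a library, the level of Plat per length was 0.269 and 0.259 of that of Plau on glass. It was 0.793 in both 1 kPa libraries, and 0.791 and 0.624 on 20 kPa. With all exons as the length, Plau was above Plat in all 6 libraries. With the longest transcript this order held on glass (25.8 against 10.4 CPM per kb) and turned in the means on both gels, where Plat was at 15.7 and 16.8 and Plau at 12.99 and 15.7 CPM per kb on 1 kPa and 20 kPa. Which activator transcript was more abundant on the gels therefore depends on the length used, whereas the ratio was higher on the gels than on glass with either length. The sum of both activators went from 32.5 and 32.0 CPM per kb on glass to 23.3 and 22.8 on 1 kPa, and to 25.7 and 27.0 on 20 kPa. The gel libraries therefore lay below glass in this sum although Plat was higher there.

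Plaur, the urokinase receptor, varied least among the activators and their receptor. It was at 80.9 and 81.2 CPM on glass, at 73.2 and 76.3 CPM on 1 kPa, and at 66.1 and 65.1 CPM on 20 kPa. Each substrate held its own range, with glass highest. Plaur fell by 0.30 on the log2 scale on 20 kPa against glass (SE 0.06, edgeR adjusted p = 0.000285). On 1 kPa its log2 fold change was -0.12 (95% interval -0.25 to 0.01, edgeR adjusted p = 0.142) and did not pass.

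The ratio of Plau to Plaur per length was 0.829 and 0.82 in the glass libraries, then 0.464 and 0.437 in those on 1 kPa, and 0.569 and 0.668 in those on 20 kPa. Transcripts of the ligand were thus fewer, relative to those of its receptor, in all 4 gel libraries.

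Against glass, the serpins held both the largest rise and the largest fall among the members. Serpine2 encodes protease nexin-1, a serpin at the cell surface and in the matrix that inhibits thrombin, urokinase and tissue plasminogen activator. It was at 117.1 and 109.1 CPM on glass, at 403.1 and 432.2 CPM on 1 kPa, and at 354.6 and 358.5 CPM on 20 kPa. Glass lay far below both gels, and the gels did not overlap each other. Serpine2 rose by 1.88 on 1 kPa (SE 0.06, edgeR adjusted p = 3.92e-21), a 3.69-fold rise, and by 1.66 on 20 kPa (SE 0.06, edgeR adjusted p = 9.58e-20), a 3.15-fold rise. Its absolute log2 fold change exceeded that of 94.7% of tested genes on 1 kPa and 94.1% on 20 kPa.

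Set against both activators, the level of Serpine2 per length was 0.435 and 0.411 of the sum of Plau and Plat in the glass libraries, 2.09 and 2.28 in those on 1 kPa, and 1.66 and 1.6 in those on 20 kPa. The inhibitor transcript was below that sum in both glass libraries and above it in all 4 gel libraries, with all exons used as gene lengths.

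**Figure D2:**
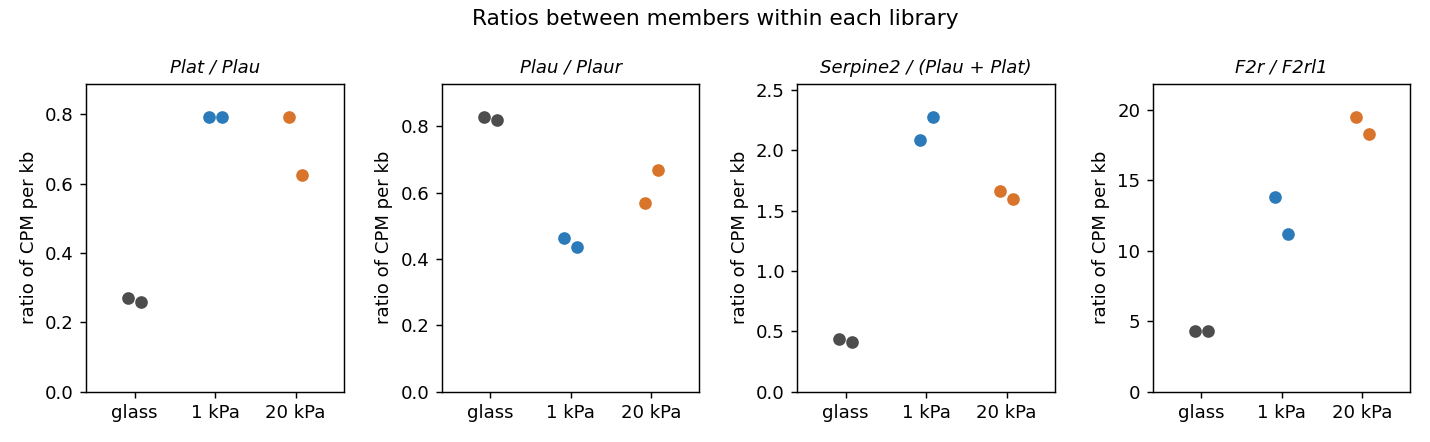
Ratios of levels per kilobase of exon between members within each library (vertical axis, from 0, scaled per panel) on glass, 1 kPa and 20 kPa; each point is 1 library. Plat over Plau, Serpine2 over both activators and F2r over F2rl1 are lowest on glass, and Plau over Plaur is highest there.

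Serpinb2 encodes plasminogen activator inhibitor 2, a largely intracellular serpin known to be induced in inflammation. It had 10 and 8 counts on glass, or 0.462 and 0.464 CPM, and passed the filter through the gel libraries alone. Its levels were 17.5 and 15.3 CPM on 1 kPa, and 7.36 and 8.28 CPM on 20 kPa. The groups formed 3 separate levels, with 1 kPa highest. Serpinb2 rose by 5.13 on 1 kPa (SE 0.23, edgeR adjusted p = 9.59e-18) and by 4.06 on 20 kPa (SE 0.26, edgeR adjusted p = 5.08e-14). In ratios of summed counts it was 35.6-fold higher on 1 kPa (95% counting interval 22.3 to 60.4) and 16.9-fold higher on 20 kPa (10.5 to 28.9). Glass gave 18 counts in all, and these counting intervals are wider than those of the fit (4.66 to 5.596 and 3.54 to 4.58 on the log2 scale). Since the filter kept this gene for its gel libraries, it had to be higher there, and its calls against glass add no support to the counts of members below.

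Markers of leukocytes are given beside Serpinb2, and they did not move as a set. Of 5 tested macrophage and leukocyte markers, 2 rose and 0 fell on 1 kPa, and 2 rose and 1 fell on 20 kPa. Their sum was 16.1 to 17.6 CPM on glass, 56.0 to 56.2 on 1 kPa and 24.6 to 28.3 on 20 kPa. Cd14 made up most of the difference, at 5.26 ± 0.469, 42.6 ± 1.73 and 14.1 ± 1.44 CPM. Lyz2 was at 3.24 ± 0.663, 6.32 ± 1.88 and 5.35 ± 0.0925 CPM. Csf1r was highest on glass, at 3.92 ± 1.03, 2.79 ± 0.0568 and 2.09 ± 0.284 CPM. Cd68 was nearly level, at 3.94 ± 0.317, 3.7 ± 0.0708 and 4.25 ± 0.397 CPM. Ptprc, the pan-leukocyte marker, had only 10, 5 and 7 counts summed over the 2 libraries of glass, 1 kPa and 20 kPa, and the myeloid integrin Itgam had 1, 2 and 1. The macrophage marker Adgre1 had 8, 21 and 17 counts summed in the same way, those on 20 kPa as 14 and 3 in the 2 libraries. Adgre1 passed the filter only through gel libraries, so its direction against glass was set by the filter. The part of leukocytes in the Serpinb2 result was not tested beyond these values.

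Serpinb9b belongs to the mouse Serpinb9 family of intracellular serpins, whose founding member blocks granzyme B. It was at 11.8 and 13.9 CPM on glass, at 1.56 and 2.52 CPM on 1 kPa, and at 1.51 and 2.42 CPM on 20 kPa. Both gels lay far below glass and overlapped each other. Serpinb9b fell on both, with log2 fold changes of -2.67 on 1 kPa (SE 0.21, edgeR adjusted p = 7.5e-12) and -2.699 on 20 kPa (SE 0.21, edgeR adjusted p = 5.08e-12). Counting from the largest fall it ranked 18 of 16093 on 1 kPa and 17 on 20 kPa. Its gel libraries held 31 to 50 counts each.

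The receptors both fell, by very different amounts. F2r, the thrombin receptor gene, was at 125.9 and 130.9 CPM on glass, at 105.0 and 101.8 CPM on 1 kPa, and at 108.7 and 103.3 CPM on 20 kPa. Glass lay above both gels, which overlapped each other. F2r fell by 0.31 on 1 kPa (SE 0.06, edgeR adjusted p = 9.05e-05) and by 0.28 on 20 kPa (SE 0.06, edgeR adjusted p = 0.000404).

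F2rl1 was at 24.1 and 25.0 CPM on glass, at 6.24 and 7.45 CPM on 1 kPa, and at 4.58 and 4.65 CPM on 20 kPa. Every substrate had its own range, and 20 kPa was lowest. F2rl1 fell by 1.85 on 1 kPa (SE 0.12, edgeR adjusted p = 2.13e-13), 3.6-fold lower than glass, and by 2.41 on 20 kPa (SE 0.13, edgeR adjusted p = 1.69e-15), 5.31-fold lower. The ratio of F2r to F2rl1 per length went from 4.29 and 4.3 on glass to 13.8 and 11.2 on 1 kPa, and to 19.5 and 18.3 on 20 kPa. The thrombin receptor transcript was thus the more abundant in every library, by a wider margin on the gels.

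Keratinocytes express F2rl1 strongly in skin, so their markers are given beside it. Of 5 tested keratinocyte markers, 3 fell and 1 rose on each gel. The 3 that fell, Krt5, Krt14 and Krt17, passed the filter only through their glass libraries. They had to be lower on the gels, so this count adds no support to any reading. Krt5 was at 2.68 ± 0.392 CPM on glass, 0.133 ± 0.05 on 1 kPa and 0.413 ± 0.174 on 20 kPa, and Krt14 was at 3.13 ± 0.573, 0.664 ± 0.25 and 0.292 ± 0.07 CPM. Trp63 was at 11.1 ± 1.85, 23.3 ± 1.67 and 22.5 ± 0.209 CPM. Krt10 was at 2.37 ± 0.416, 2.45 ± 0.532 and 3.21 ± 0.398 CPM. The summed level of all 8 listed markers was 19.1 to 24.1 CPM on glass and 26.3 to 28.5 CPM on the gels. The higher sum on the gels came from Trp63, at 9.80 to 12.4 CPM on glass and 22.1 to 24.4 CPM on the gels. Without Trp63 the other markers together were lower on the gels. Krt15 was all but absent throughout, with 1 count on glass and 0 on both gels. The part of these cells in the F2rl1 result was not tested.

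**Figure D3:**
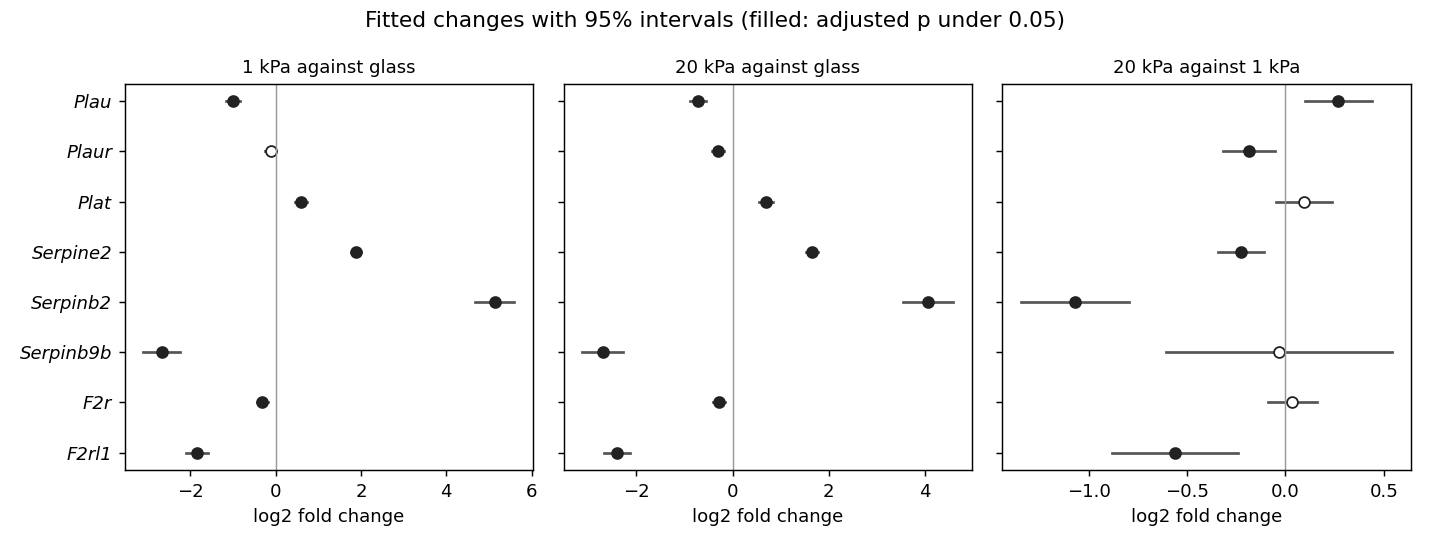
Fitted log2 fold change of each member (horizontal axis, scaled per panel) with its 95% interval in the 3 contrasts; filled points have an edgeR adjusted p under 0.05. Against glass, Serpinb2 has the largest rise and Serpinb9b and F2rl1 the largest falls; between the gels, changes are smaller, with Serpinb2 at -1.07.

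Counted together, 7 of the 8 members changed on 1 kPa against glass (45.0% of all tested genes did), 3 higher (23.0% of all) and 4 lower (22.0%). On 20 kPa all 8 changed (41.8% of all tested genes), 3 higher (22.3%) and 5 lower (19.6%). At least 2-fold changes numbered 4 in each contrast, against 12.6% and 11.5% of all tested genes, and were those of Serpine2, Serpinb2, Serpinb9b and F2rl1. The libraries did not overlap for 8 of 8 members in either contrast, against 71.0% and 67.5% of all tested genes. The median log2 fold change was -0.21 over the members and 0.002 over all tested genes on 1 kPa, and -0.29 and 0.015 on 20 kPa. Both contrasts share the glass libraries, so their likeness is not independent.

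Between the gels the members differed less. Of the 8, 5 passed on 20 kPa against 1 kPa (18.9% of all tested genes), 1 higher (8.94%) and 4 lower (9.92%). The split over all tested genes depended on the scaling: 47.4% of called genes were higher on 20 kPa with TMM factors and 60.8% with library totals. The members' libraries did not overlap for 6 of 8, against 60.1% of all tested genes.

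Serpinb2 was 2.1-fold lower on 20 kPa than on 1 kPa (log2 fold change -1.07, SE 0.14, edgeR adjusted p = 4.2e-07) and was the only member to change at least 2-fold, as 3.10% of tested genes did. Its call held in all 13 alternatives run. F2rl1 fell by 0.56 (SE 0.16, edgeR adjusted p = 0.00992) and Serpine2 by 0.23 (SE 0.06, edgeR adjusted p = 0.00432) from 1 kPa to 20 kPa. Both calls were lost without 1 kPa replicate 2 (adjusted p = 0.17 and 0.203) and without 20 kPa replicate 1 or 2 (0.0526 to 0.0771).

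Plau rose by 0.27 from 1 kPa to 20 kPa (SE 0.08, edgeR adjusted p = 0.0218). It no longer passed with DESeq2 (0.0862), nor without 1 kPa replicate 1 (0.0986), 1 kPa replicate 2 (0.167) or 20 kPa replicate 2, which left 0.16 (0.334). Plaur fell by 0.19 (SE 0.06, edgeR adjusted p = 0.0414) and did not pass in 8 of 13 alternatives, among them those without any single gel library (0.13 to 0.338). Plat had a log2 fold change of 0.09 (95% interval -0.05 to 0.24), F2r of 0.04 (-0.09 to 0.16) and Serpinb9b of -0.03 (-0.61 to 0.54), and none of these passed. For Serpinb9b the interval still allows a change of about 0.5 either way.

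Other genes of the same system were taken from 5 lists of inhibitors, receptors, coagulation factors and signal transducers, and from each list up to 4 of those with the highest mean CPM are named. For all 5 lists, the share to set beside the counts on 1 kPa is 23.0% of all tested genes higher and 22.0% lower. On 20 kPa these shares were 22.3% and 19.6%. Counts near these shares say little about a list. Of 27 genes around plasminogen, 20 were tested. On 1 kPa 7 were higher and 9 lower than on glass, on 20 kPa 4 and 8, with median log2 fold changes of 0.03 and -0.14. Clec3b and St14 of this list passed the filter only through glass libraries, so their direction was set by the filter. Plg itself, the gene of the substrate of both activators, had 0 to 2 counts in a library.

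Lrp1, an endocytic receptor that clears complexes of proteases and serpins, was at 2221 ± 76.8 CPM on glass, and rose to 3720 ± 22.1 on 1 kPa (0.74, SE 0.06) and 3053 ± 134 on 20 kPa (0.46, SE 0.06). Eno1, a glycolytic enzyme that can bind plasminogen at the cell surface, was at 2372 ± 49.3, 2712 ± 133 and 1948 ± 14.1 CPM. It was higher than glass on 1 kPa and lower on 20 kPa, the former not without 1 kPa replicate 2 (edgeR adjusted p = 0.237) nor with library totals (0.0521). The integrin subunit Itgb1 was at 1053 ± 93.7, 870 ± 32.7 and 971 ± 26.0 CPM and fell on 1 kPa (-0.28, SE 0.06).

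Of 25 further clade B serpins, the group of Serpinb2 and Serpinb9b, only 5 were tested and 8 had no count in any library. Against glass, 0 rose and 3 fell on 1 kPa, and 1 rose and 3 fell on 20 kPa. Serpinb6a was at 359 ± 54.4, 239 ± 4.63 and 227 ± 12.2 CPM on glass, 1 kPa and 20 kPa, with 29.3% of its exonic length shared with other genes. Serpinb1a, an inhibitor of neutrophil proteases, was at 27.6 ± 4.95, 8.33 ± 1.24 and 10.35 ± 1.4 CPM. Serpinb9, the granzyme B inhibitor, was at 28.2 ± 6.21, 12.01 ± 0.179 and 20.8 ± 0.608 CPM. These 3 were the ones that fell on both gels, though for Serpinb9 on 20 kPa the call was lost without glass replicate 2 (edgeR adjusted p = 0.169). Serpinb8 was at 15.7 ± 0.254, 17.4 ± 1.83 and 20.9 ± 2.29 CPM, and rose on 20 kPa but not without 20 kPa replicate 1 (0.0888).

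Of 18 other serpins, 8 were tested, and 5 rose and 1 fell on each gel against glass (median log2 fold changes 1.62 and 1.497). Serpina3f and Serpina3i passed the filter only through gel libraries, and Serpina12, the one that fell, only through glass libraries. Their directions were set by the filter, so they add no support to these counts, and they also enter the medians. Serpinf1, which encodes the secreted factor PEDF, was at 420 ± 17.6, 1250 ± 29.5 and 1137 ± 44.2 CPM on glass, 1 kPa and 20 kPa. Serpina3n, an acute-phase serpin, was at 115 ± 3.81, 367 ± 11.5 and 338 ± 18.3 CPM, and its relative Serpina3g at 0.654 ± 0.141, 9.77 ± 2.03 and 2.65 ± 0.847 CPM. All 3 rose on both gels; members of the Serpina3 family are close copies of each other, so counts of single members are uncertain. Serpinh1, the collagen chaperone HSP47, was at 1896 ± 4.85, 1897 ± 27.6 and 1810 ± 6.31 CPM and passed in no contrast.

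Of 20 coagulation genes, 13 were tested, with 8 higher and 3 lower on 1 kPa and 9 higher and 2 lower on 20 kPa than on glass (medians 0.49 and 0.54). F2, which encodes prothrombin, the precursor of the protease that cuts the F2r product, had 0 to 1 counts in a library. Thbd, the thrombin-binding receptor thrombomodulin, was at 203 ± 3.55, 234 ± 0.32 and 256 ± 5.05 CPM, and rose on both gels, on 1 kPa not without 1 kPa replicate 2 (edgeR adjusted p = 0.0504). Pros1, the anticoagulant protein S, was at 218 ± 11.8, 336 ± 14.0 and 339 ± 21 CPM and rose on both gels. So did the proprotein convertase Furin, at 189 ± 8.92, 265 ± 0.346 and 223 ± 3.47 CPM. Gas6, a relative of protein S, was at 621 ± 42.3, 547 ± 1.54 and 900 ± 3.0 CPM and rose on 20 kPa. It was lower on 1 kPa (-0.18, SE 0.06, edgeR adjusted p = 0.0118), a call lost without glass replicate 1 (0.0739) or either 1 kPa library (0.089 and 0.118).

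Of 19 further receptors and transducers of protease-activated receptor signals, 17 were tested. On 1 kPa 4 were higher and 6 lower than on glass, and on 20 kPa 2 and 6, with medians of 0.015 and -0.08. The 2 not tested were the remaining receptors of the family, F2rl2 with 0 to 2 counts and F2rl3 with 2 to 9 counts in a library, so F2r and F2rl1 held nearly all counts of the 4 receptor genes. Gnai2, an inhibitory G protein subunit, was at 661 ± 17.9, 435 ± 15.2 and 470 ± 6.26 CPM. The small GTPase Rhoa was at 387 ± 5.57, 291 ± 9.66 and 286 ± 6.84 CPM, and its effector kinase Rock2 at 323 ± 10.7, 195 ± 0.375 and 192 ± 5.94 CPM. All 3 fell on both gels. Arhgef1, an exchange factor that links G proteins to Rhoa, was at 221 ± 8.03, 206 ± 8.35 and 210 ± 11 CPM and passed in no contrast.

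Between the gels fewer genes of these lists were called, as over all tested genes (8.94% higher and 9.92% lower on 20 kPa). On 20 kPa against 1 kPa, 2 plasminogen genes were higher and 6 lower, 1 clade B serpin (Serpinb9) was higher, and 3 other serpins were lower. Of the coagulation genes 2 were higher and 4 lower, and of the receptors and transducers 3 were lower.

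**Figure D4:**
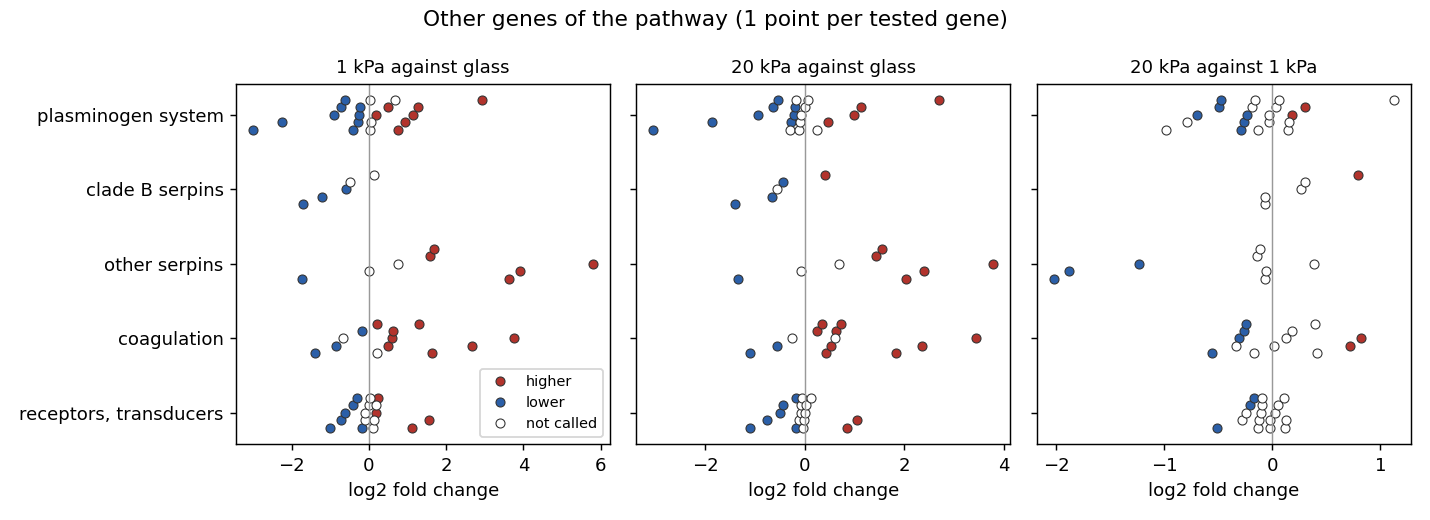
Log2 fold changes (horizontal axis, scaled per panel) of the tested genes of 5 pathway lists in the 3 contrasts; each point is 1 gene, red for higher and blue for lower with an edgeR adjusted p under 0.05, white for not called. The other serpins have 5 genes higher and 1 lower of 8 tested on each gel against glass. The coagulation genes have 8 higher and 3 lower of 13 tested on 1 kPa, and 9 and 2 on 20 kPa. The plasminogen and receptor lists hold called genes in both directions against glass, and only 5 clade B serpins were tested.

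For each member, the 2 protein-coding genes with the most similar profile were found among 10689 genes, by the root mean square difference of log2 CPM over the 6 libraries after centring. Plau was nearest to Mpp1 (0.0403) and St3gal5 (0.0541), Plat to Itm2b (0.0281) and Pttg1 (0.0283), and Plaur to Dcxr (0.0192) and Rapgef2 (0.0221). For Serpine2 these were 9330182L06Rik (0.0576) and Asap3 (0.0614). Serpinb2 was nearest to Hp (0.101), the acute-phase protein haptoglobin, at 14.7 ± 0.273 CPM on glass, 496 ± 17.8 on 1 kPa and 226 ± 1.02 on 20 kPa, and to Rarres2 (0.104), the chemoattractant chemerin, at 4.84 ± 0.373, 135 ± 13.5 and 75.6 ± 3.92 CPM. F2r was nearest to Ctbs (0.0151) and Spcs3 (0.0166). Small values for members that changed little mean only that many genes share a nearly flat profile.

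For the members that fell most, the nearest genes were less close. F2rl1 was nearest to Msln (0.11), which encodes mesothelin and was at 47.9 ± 2.42, 13.4 ± 0.435 and 10.2 ± 0.355 CPM, and to Ppl (0.207), the desmosomal protein periplakin, at 34.9 ± 4.91, 11.4 ± 1.35 and 7.63 ± 0.515 CPM. Serpinb9b was nearest to Gfra2 (0.291), which encodes a neurturin receptor, and Erfe (0.335). Among the members themselves, Plaur and F2r were most alike (0.106), and Serpinb2 and Serpinb9b least (3.33).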

How the data were processed

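Counts per gene were deposited by the authors as raw whole numbers, 1 column per library, unnormalised. The submitters' processing notes name the genome mm10, the aligner STAR 2.7.10b, the counter featureCounts, and Trim Galore with cutadapt. The sources used here do not give settings, annotation or strand use. Symbols, positions and lengths came from GENCODE M21 (GRCm38, the same genome build as mm10), which held 91.4% of the identifiers. For all 8 members the identifier version differed between the count table and GENCODE M21, so the counting may have used another annotation release.

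Genes were filtered with filterByExpr and scaled with TMM in edgeR 4.0.16 (R 4.3.3). A single quasi-likelihood fit of all 6 libraries, with substrate as the term and 3 residual degrees of freedom, gave the contrasts, with Benjamini-Hochberg adjustment over 16093 genes and a threshold of 0.05. SE is the absolute log2 fold change over the square root of F. The test was tried on simulated counts. Counts of 3 equal 0.139 to 0.174 CPM, taken as the floor; counting intervals cover counting error only. An exact permutation test of 2 against 2 libraries was not used, since it cannot pass. Alternatives were DESeq2 1.42.0, limma 3.58.1 (voom), library totals, other filters, fewer libraries and a replicate block; those for the pathway lists and for the test over 3 groups were added after seeing the data.

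Named genes were the 8 members, and from each pathway list the 4 tested genes with the highest mean CPM, of which 1 is not reported here; a few others (Plg, F2, F2rl2, F2rl3, the markers and neighbouring genes) are given as values. The members and lists were chosen with earlier results of these data known.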

Additional observations from a re-analysis of the deposited data

How the results depend on the processing

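Against glass, every member kept its direction and its side of the threshold in all 13 alternatives, so that 7 members were called on 1 kPa and 8 on 20 kPa throughout. Between the gels, DESeq2 called 2022 genes and 3 members, against 3035 and 5. Leaving out each library in turn gave 1680 to 3824 genes and 1 to 5 members for this contrast; a group left with 1 library was assumed to vary like the others. For Serpinb9b between the gels, which was not called, the sign turned with library totals (0.011), without 1 kPa replicate 2 (0.33) and without 20 kPa replicate 1 (0.27), over a range of -0.41 to 0.33 with single libraries left out; the cause was not tested. Among the lists, counts between the gels moved by over 1.5 times for the transducers (3 called, 1 to 5 in the alternatives), coagulation genes (6, and 3 without 20 kPa replicate 2), plasminogen genes (8, and 5 without 20 kPa replicate 2) and clade B serpins (1, and 2 with library totals or without glass replicate 1).

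The labels give each group replicates 1 and 2 but do not say that a number pairs libraries. Same-numbered libraries did not deviate together: the correlation across genes of replicate 1 minus replicate 2 was -0.035, -0.016 and -0.034 between groups. With the replicate block 7032, 6526 and 2862 genes were called for 1 kPa against glass, 20 kPa against glass and 20 kPa against 1 kPa. Among the members it ended the call of Plaur between the gels (adjusted p = 0.0591) and changed no other call.

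Depth limits Serpinb2 on glass (18 counts in all) and Serpinb9b on the gels (31 to 50 counts a library).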

Other observations

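The chromosomal neighbours of the members were looked at as values, with the nearest tested protein-coding gene taken on either side. Beside Plau lies Vcl, which encodes the focal adhesion protein vinculin, 86.0 kb away and at 266 ± 13.8 CPM on glass, 116 ± 1.34 on 1 kPa and 138 ± 12.7 on 20 kPa. Its log2 fold changes were -1.19 and -0.95 against glass, next to -0.99 and -0.72 for Plau. On the other side Camk2g was at 129 ± 0.00741, 99.0 ± 0.923 and 104 ± 3.45 CPM. Beside Serpinb9b lies Serpinb9, 9.46 kb away, at log2 fold changes of -1.22 and -0.43 against glass, next to -2.67 and -2.699 for Serpinb9b. Serpinb8, 54.5 kb from Serpinb2, was at 0.14 and 0.41, next to 5.13 and 4.06 for Serpinb2. On the far side of F2r lies Iqgap2, 8.69 kb away, at 3.56 ± 0.386, 3.82 ± 0.229 and 3.67 ± 1.01 CPM. Cadm4, 6.05 kb from Plaur, was at 1.21 and 1.44, next to -0.12 and -0.30 for Plaur. Smg9 beside Plaur, Ap3m2 beside Plat, Mrpl44 and Cul3 beside Serpine2, and Aggf1 beside F2rl1 were not called against glass. Ikbkb beside Plat fell on 20 kPa (-0.225), Vps4b beside Serpinb2 fell on 1 kPa (-0.164), and Serpinb6a beside Serpinb9b fell on both. Whether neighbours move together more than other genes was not tested.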
